A study of Mus musculus with 10 samples.

Results

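The 8 genes described here are the transcription factor genes Foxp3, Ikzf2, Tbx21 and Gata3 and the receptor genes Il2ra, Icos, Ctla4 and Pdcd1, which mark regulatory T cells and T helper subsets. They were taken by gene name from the deposited expression table, and all 8 were found among its 54532 genes, each with a mean of at least 0.1 FPKM, the minimum for testing that 21296 genes reached. Spleens came from 5 DUSP6 KO and 5 WT mice on day 9 of serum-induced arthritis (KSIA, with serum from KRN mice), when the arthritis peaks, with 1 RNA library per spleen. DUSP6 KO mice carry the Dusp6tm1Jmol allele in every cell, and both they and the WT mice were purchased from Jackson. All 10 mice were 8 to 12 weeks old and received 100 µL of pooled arthritogenic serum, collected from arthritic offspring of a KRN x NOD F1 cross, into the peritoneum on days 0 and 2, so there was no serum-free group. In the sample labels the mutants are named a knockdown. The paper lists the DUSP6 KO and WT mice as separate Jackson strains and mentions no littermate controls. The comparison of genotypes is therefore also one of separately purchased lines, and these were not tested apart. Although the labels mention males and females, Xist did not exceed 0.0206 FPKM in any of the 10 libraries, and Ddx3y, on the Y chromosome, was never under 14.4 FPKM, so the 10 libraries read as male.

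CD4+ T cells take on separate functions under lineage-defining transcription factors. FOXP3 is required for regulatory T cells, which hold other T cells in check, and the Ikaros family factor Helios, encoded by Ikzf2, is found in many of them. T-bet, encoded by Tbx21, directs T helper 1 cells and is also made in natural killer cells, while GATA3 directs T helper 2 cells and is needed in T cell development and in innate lymphoid cells. The receptors divide by what they do: CD25, the alpha chain of the interleukin 2 receptor encoded by Il2ra, raises its affinity for interleukin 2, ICOS is costimulatory, and CTLA-4 and PD-1, encoded by Pdcd1, are inhibitory checkpoints. In serum-transfer arthritis, antibodies against glucose-6-phosphate isomerase start the disease in the recipient through innate immune cells.

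FPKM counts fragments per kilobase of gene length, scaled to the depth of the library, so levels of different genes can be set side by side. The reads behind each value were recovered from the table, with totals of 14990474 to 19822673 (median 17298955) per DUSP6 KO library and 15611652 to 18422147 (median 16201982) per WT library. The deleted gene was low in every library of the mutant group. Dusp6 ran from 0.308 to 0.624 FPKM in the mutants and from 16.6 to 24.0 FPKM in WT mice (log2 fold change -5.19; limma, adjusted p = 1.3e-07). These are whole-spleen libraries, in which fewer cells of a type and less RNA per cell cannot be told apart.

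The start regions of Foxp3 and Ctla4 are shown because they alone, among the start regions found, held one of the letter motifs searched. RefSeq windows on GRCm38.p6, running from 250 bases before to 50 bases after an annotated start, were found for 6 of the 8 genes (7 windows, 2 of them for Foxp3). Icos and Ikzf2 had no entry. Both strands were searched for AGATAA, a form of the GATA motif, for GGTGTGA, a T-box core, for TGTTTAC, a forkhead core, and for TATAAA, and none of the 4 contains another. The capitals mark the match in each window, written 5′ to 3′ on the strand of the gene, which is the forward strand for all 3.
Foxp3, first start (chrX:7579426-7579725): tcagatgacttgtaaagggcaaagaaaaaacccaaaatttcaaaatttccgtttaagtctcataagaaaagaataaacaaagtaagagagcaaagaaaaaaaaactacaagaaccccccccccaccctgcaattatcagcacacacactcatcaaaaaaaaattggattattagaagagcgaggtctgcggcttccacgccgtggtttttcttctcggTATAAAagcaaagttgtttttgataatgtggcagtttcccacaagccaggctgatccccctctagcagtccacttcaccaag
Foxp3, second start (chrX:7580233-7580532): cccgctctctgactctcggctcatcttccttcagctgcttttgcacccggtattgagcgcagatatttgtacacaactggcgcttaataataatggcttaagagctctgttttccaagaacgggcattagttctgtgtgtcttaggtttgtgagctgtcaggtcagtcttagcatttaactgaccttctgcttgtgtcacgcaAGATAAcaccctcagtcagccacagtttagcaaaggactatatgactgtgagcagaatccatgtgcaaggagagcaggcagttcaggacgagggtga
Ctla4 (chr1:60908775-60909074): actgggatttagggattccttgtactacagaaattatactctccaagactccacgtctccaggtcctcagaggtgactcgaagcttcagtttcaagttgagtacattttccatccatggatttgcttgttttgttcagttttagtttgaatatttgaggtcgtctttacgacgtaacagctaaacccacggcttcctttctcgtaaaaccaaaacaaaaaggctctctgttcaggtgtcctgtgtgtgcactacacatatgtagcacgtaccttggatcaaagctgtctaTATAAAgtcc
The first Foxp3 window held TATAAA with its first base at -32 from the start, and the second held AGATAA at -47. In Ctla4, TATAAA began at 40 bases after the start. Among all 32851 promoter windows of this length, AGATAA was in 11.2%, TATAAA in 13.6%, GGTGTGA in 3.98% and TGTTTAC in 3.65%. The T-box and forkhead letters were in 0 of the 7 windows, which says only that these letters are not in these stretches.

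None of the 8 genes was past the threshold between the genotypes. In limma across all genes tested, 0 of 8 passed at an adjusted p of 0.05, as 0.0704% of all genes did, and 0 of 8 had an unadjusted p under 0.05, which 5.66% of all genes had. In 8 of 8 the fitted mean was lower in DUSP6 KO, a direction shared by 51.0% of the genes tested, and their median log2 fold change was -0.13 against -0.0046 for all genes. The ranges of the groups overlapped for each of the 8, where 0.563% of all genes had every DUSP6 KO spleen below every WT spleen and 0.549% every DUSP6 KO spleen above. The lowest adjusted p among the 8 was 0.94, that of Foxp3.

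Below, values per mouse are always given in the same order, DUSP6 KO replicates 26, 21, 73, 01 and 03 and WT replicates 65, 67, 73, 77 and 83. Foxp3 had the largest fitted difference of the 8. Its level was 3.36, 2.09, 1.76, 2.16 and 2.87 FPKM in the DUSP6 KO mice and 3.42, 3.28, 3.01, 2.40 and 2.98 FPKM in the WT mice. The values of replicates 21, 73 and 01 in the mutant group lay under the lowest WT value, while replicate 26 was nearly at the highest. The mean was 2.45 ± 0.65 FPKM for DUSP6 KO and 3.02 ± 0.39 FPKM for WT (SD, n = 5 each). The log2 fold change was -0.32 (95% interval -0.71 to 0.08), with an unadjusted limma p of 0.10 and an adjusted p of 0.94, and the two-sided exact permutation test also gave p = 0.10. The interval runs from a fold of 0.611 to 1.06, so a fall to 0.611 of the WT level is inside it. Leaving out each library in turn kept Foxp3 lower, at -0.44 without DUSP6 KO replicate 26 (unadjusted p = 0.024, adjusted p = 0.73) and -0.21 without replicate 73.

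The deposited Foxp3 gene lies at chrX:7579676-7595243 on the forward strand, by coordinates that match GRCm38. In GENCODE release 21 the gene starts further upstream, so overlaps were counted within the deposited span alone. There, by that annotation, Foxp3 exons share 373 bases with Gm36995 and 590 bases with Ccdc22, both on the opposite strand, and 267 bases with the long noncoding RNA gene Flicr on the same strand. The sources used here do not give whether strand was used in counting. How reads in these shared bases were assigned was not examined, so their effect on the Foxp3 values is not known. The count rested on 103 to 250 reads per library. Cd4 encodes the coreceptor of helper and regulatory T cells. As a share of Cd4 FPKM, Foxp3 was 10.7% to 17.9% (median 13.4%) in DUSP6 KO and 16.0% to 19.3% (median 17.1%) in WT. The ranges overlapped on this scale too, but through DUSP6 KO replicate 26 alone, at 17.9%. DUSP6 KO replicate 73 lay just under the lowest WT value, 15.92% against 15.96%.

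Ikzf2 had the lowest mean FPKM of the 8, with a range that overlapped those of several others. It was at 1.001, 1.53, 1.199, 1.22 and 1.65 FPKM in the DUSP6 KO mice and 1.24, 1.31, 1.90, 1.48 and 1.84 FPKM in the WT mice. DUSP6 KO spleens 26, 73 and 01 were under the lowest WT spleen, and the others lay within the WT range. DUSP6 KO minus WT gave a log2 fold change of -0.22 (95% interval -0.62 to 0.18), with a limma adjusted p of 0.98. The gene is at chr1:69531214-69687245 on the reverse strand, and 144 bases of its exons overlap the antisense gene Gm29114.

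**Figure D1:**
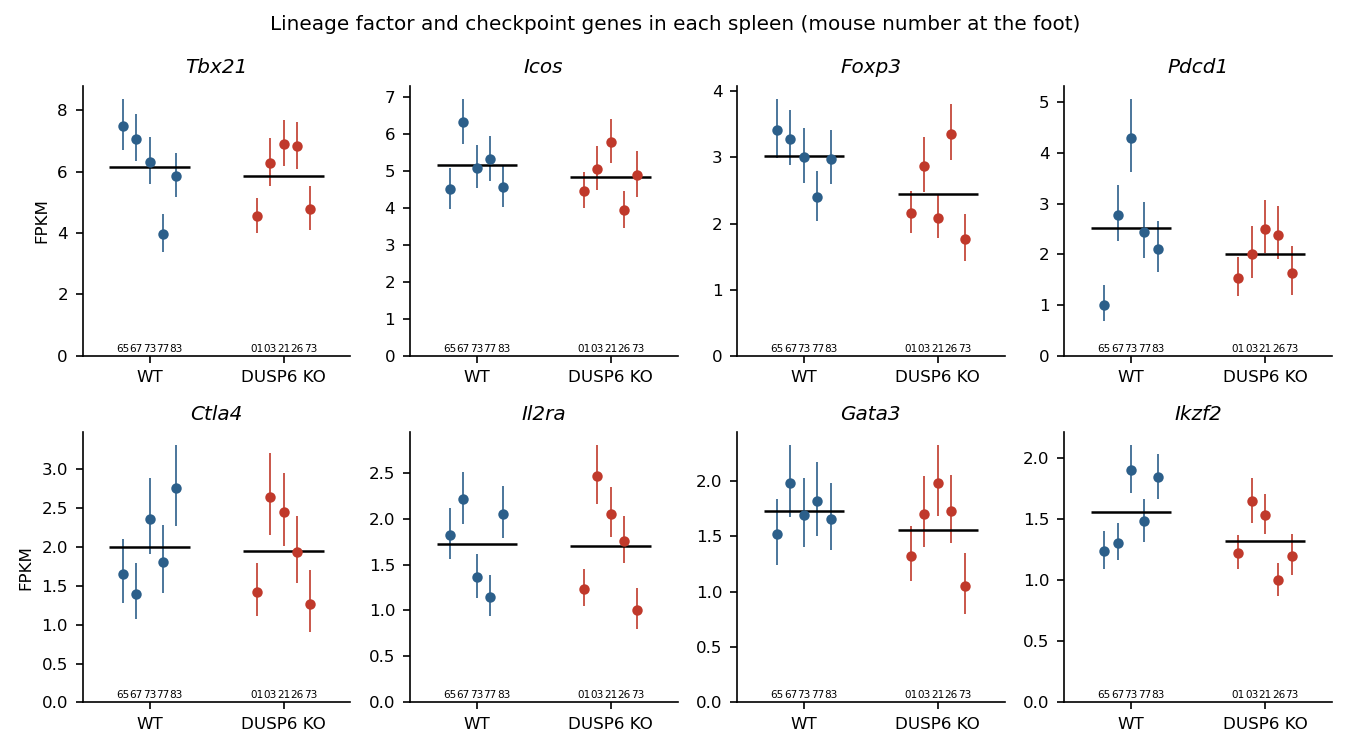
FPKM of each gene in every spleen (vertical axes, linear from 0), with WT in blue and DUSP6 KO in red, mouse numbers at the foot and black lines at the group means. Bars are exact Poisson 95% intervals of the recovered reads, which cover counting error only. Groups overlap in all 8 panels, and the 3 lowest Foxp3 values are those of DUSP6 KO 73, 21 and 01.

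Tbx21, the T helper 1 factor gene, had the highest mean of the 8. It was at 6.83, 6.90, 4.77, 4.54 and 6.28 FPKM in the DUSP6 KO mice and 7.50, 7.07, 6.32, 3.96 and 5.85 FPKM in the WT mice. All DUSP6 KO values lay within the WT range, whose lowest spleen was WT 77. Its log2 fold change was -0.055 (95% interval -0.47 to 0.36; limma, adjusted p = 0.99). Tbx21 lies at chr11:97098071-97115331 on the reverse strand and has no exonic overlap with another gene in the annotation.

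Gata3, the T helper 2 factor gene, varied least among WT spleens. Its levels were 1.72, 1.98, 1.047, 1.32 and 1.70 FPKM in the DUSP6 KO mice and 1.51, 1.98, 1.69, 1.81 and 1.66 FPKM in the WT mice. DUSP6 KO replicates 73 and 01 were under every WT spleen, and the others were within the WT values or at their top. The coefficient of variation was 23.7% in DUSP6 KO and 10.05% in WT, where counting alone would give 9.23%. Between genotypes it had a log2 fold change of -0.17 (95% interval -0.56 to 0.21; limma, adjusted p = 0.98). Gata3 is at chr2:9857078-9890034 on the reverse strand, where 155 bases overlap the antisense gene Gm13256 and 77 bases overlap 9230102O04Rik on the same strand.

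Il2ra, the gene of the inducible receptor chain for interleukin 2, had nearly equal group means, 1.70 ± 0.59 FPKM for DUSP6 KO and 1.72 ± 0.45 FPKM for WT (SD, n = 5 each). Single spleens were at 1.75, 2.05, 1.004, 1.24 and 2.46 FPKM in the DUSP6 KO mice and 1.82, 2.21, 1.36, 1.15 and 2.05 FPKM in the WT mice. The highest and the lowest of the 10 spleens, replicates 03 and 73, were both DUSP6 KO. On the log2 scale the difference was -0.042 (95% interval -0.62 to 0.54; limma, adjusted p = 1.0), and its direction turned when replicate 73 was left out, to 0.12. Il2ra lies at chr2:11642807-11693193 on the forward strand.

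The partners of CD25 were also measured. Il2rb and Il2rg, the genes of the signalling chains of the receptor, were at 23.7 ± 5.64 and 53.3 ± 12.1 FPKM (SD, n = 5) in DUSP6 KO and at 27.0 ± 2.28 and 57.9 ± 12.5 FPKM (SD, n = 5) in WT, with limma adjusted p of 0.97 and 0.99. Interleukin 2 itself was barely detected: Il2 had 0 to 4 reads per library and was under the filter. Of the 12 genes listed for the interleukin 2 receptor pathway, Il2 and Il2rg among them, 11 were tested, 6 lower and 5 higher in DUSP6 KO. One of them had an unadjusted limma p under 0.05, lower in DUSP6 KO, as 3.03% of all genes had. This was the feedback inhibitor gene Socs3, at 11.3 ± 2.62 FPKM in DUSP6 KO mice against 15.6 ± 3.27 FPKM in WT mice (SD, n = 5), with a log2 fold change of -0.47 (adjusted p = 0.77; two-sided exact permutation p = 0.040). Stat5a, which encodes a main signal carrier of this receptor, was at 6.90 ± 0.449 FPKM in DUSP6 KO mice against 6.43 ± 0.545 FPKM in WT mice (SD, n = 5; limma, adjusted p = 0.98). The kinase gene Jak1, the most abundant of this list, was at 64.8 ± 4.32 and 63.1 ± 3.43 FPKM in that order.

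Icos, the costimulatory receptor gene, had the narrowest interval of the 8. It was at 3.94, 5.79, 4.87, 4.47 and 5.04 FPKM in the DUSP6 KO mice and 4.50, 6.31, 5.09, 5.31 and 4.55 FPKM in the WT mice. DUSP6 KO spleens 26 and 01 were under the lowest WT value. Its difference was -0.094 on the log2 scale (95% interval -0.38 to 0.19; limma, adjusted p = 0.99), so the interval reaches a fold of 0.770 on the lower side and 1.14 on the upper. Icos lies at chr1:60977927-61000320 on the forward strand, next to Ctla4 and Cd28 in the same receptor gene cluster. Its ligand gene Icosl was at 24.4 ± 6.23 FPKM in DUSP6 KO mice against 27.3 ± 6.25 FPKM in WT mice (SD, n = 5; limma, adjusted p = 0.99).

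Ctla4 is at chr1:60887000-60915832 on the forward strand, and its product competes with CD28 for CD80 and CD86. Ctla4 was at 1.93, 2.45, 1.26, 1.43 and 2.64 FPKM in the DUSP6 KO mice and 1.66, 1.39, 2.36, 1.81 and 2.75 FPKM in the WT mice. The values spread over about the same range in both genotypes. Its difference on the log2 scale was -0.051 (95% interval -0.59 to 0.49; limma, adjusted p = 1.0), on 43 to 115 reads per library. Cd28 was at 5.53 ± 1.24 FPKM in DUSP6 KO mice against 4.95 ± 1.03 FPKM in WT mice, Cd80 at 2.67 ± 0.568 and 2.85 ± 0.282 FPKM, and Cd86 at 21.05 ± 2.53 and 20.6 ± 1.49 FPKM (SD, n = 5 each), and their limma adjusted p values were 0.99 for each.

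Pdcd1 was the most variable of the 8 in WT mice. It was at 2.39, 2.51, 1.63, 1.53 and 2.00 FPKM in the DUSP6 KO mice and 1.0, 2.77, 4.30, 2.43 and 2.11 FPKM in the WT mice. All DUSP6 KO values lay between WT 65, the lowest spleen, and WT 73, the highest. The coefficient of variation was 47.4% in WT against 21.8% in DUSP6 KO, where counting alone would give 11.3%, and its log2 fold change had the widest interval of the 8, -0.20 (95% interval -0.91 to 0.50; limma, adjusted p = 0.99). Pdcd1 lies at chr1:94038305-94052553 on the reverse strand. Cd274, the gene of the ligand PD-L1, was at 12.1 ± 2.53 FPKM in DUSP6 KO mice against 11.8 ± 1.66 FPKM in WT mice, and Pdcd1lg2, the gene of PD-L2, at 3.18 ± 0.866 and 2.90 ± 0.904 FPKM (SD, n = 5 each; limma, adjusted p = 1.0 and 0.99).

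By mean over the 10 spleens, the order of FPKM levels was Tbx21, Icos, Foxp3, Pdcd1, Ctla4, Il2ra, Gata3 and Ikzf2. Only between Icos and Foxp3 did neighbours keep apart, with Icos higher in 10 of 10 mice and no overlap of their ranges. Tbx21 was above Icos in 8 of 10 mice and Ctla4 above Il2ra in 8 of 10. The remaining neighbours kept their order in 6 or 7 of the 10 mice and cannot be ranked beyond their spread.

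The same spleens tended to be low for several of the genes. DUSP6 KO 01 was among the 3 lowest of 10 spleens for 8 of 8 genes, and DUSP6 KO 73 for 7 of 8, with the lowest value of all for Foxp3, Ctla4, Il2ra and Gata3. DUSP6 KO 21 and WT 67 were among the 3 highest for 6 genes each.

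A panel of 20 T cell genes, among them the T cell receptor complex, Cd4, Cd8a and Lck, gave the T cell level of each spleen. Its geometric mean was 23.0, 21.003, 12.6, 18.2 and 27.0 FPKM in the DUSP6 KO mice and 20.2, 22.2, 19.1, 15.4 and 21.6 FPKM in the WT mice. DUSP6 KO 73 and WT 77 were lowest in their genotype, and the groups overlapped. The median log2 fold change of the panel was 0.01, 11 genes were higher, 9 lower and 0 of 20 past an unadjusted limma p of 0.05, and Cd4 itself was at 17.7 ± 4.39 FPKM in DUSP6 KO mice against 17.4 ± 1.67 FPKM in WT mice (SD, n = 5). Cd3e, of the T cell receptor complex, averaged 11.7 ± 3.43 and 10.98 ± 1.5996 FPKM in that order, and Cd8a, of cytotoxic T cells, 24.9 ± 5.10 and 24.1 ± 3.17 FPKM. DUSP6 KO 73 also had the highest share of reads from haemoglobin genes, 7.56% in a range of 1.74% to 7.56%, and the highest erythroid list, while WT 77 had the highest neutrophil list. The part of these differences between spleens in the values of the 8 genes was not tested.

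Subtracting the panel's mean log2 level from every gene in each library gives levels relative to T cell genes. On this scale 0 of 8 were called (0.0563% of all genes) and 0 of 8 had an unadjusted p under 0.05 (3.10% of all genes), with all 8 fitted values below 0 and a median of -0.15 against -0.017 for all genes. Foxp3 was at -0.33 (95% interval -0.72 to 0.06; limma, adjusted p = 1.0), close to its value without the subtraction. For Il2ra the interval was narrower on this scale (-0.48 to 0.37), and for Icos it was wider (-0.64 to 0.42).

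**Figure D2:**
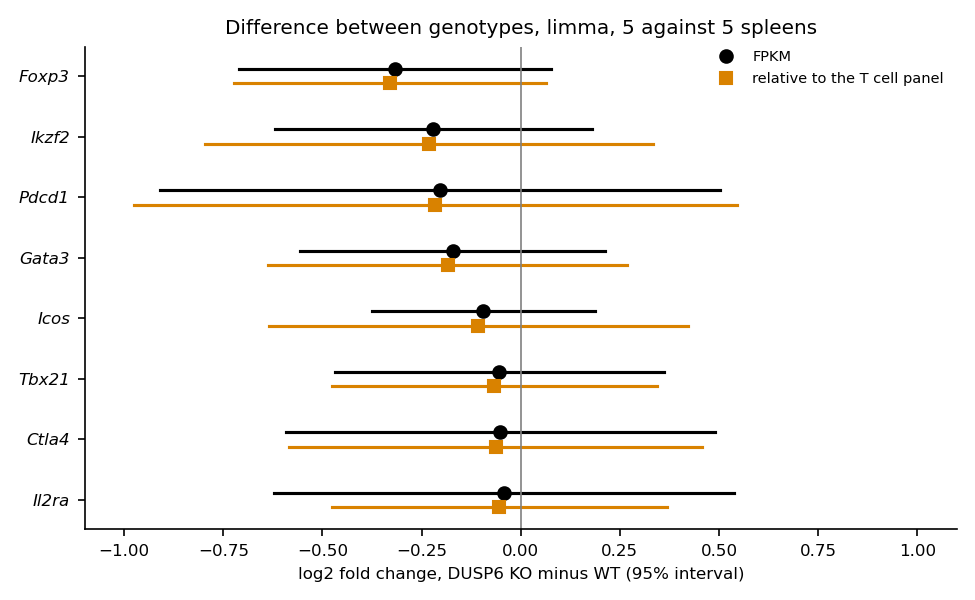
Log2 fold change of each gene, DUSP6 KO minus WT (horizontal axis), from limma on 5 against 5 spleens, on the FPKM scale (black circles) and relative to the T cell panel (orange squares), with 95% intervals. All 16 points lie below 0 and all 16 intervals cross 0.

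**Figure D3:**
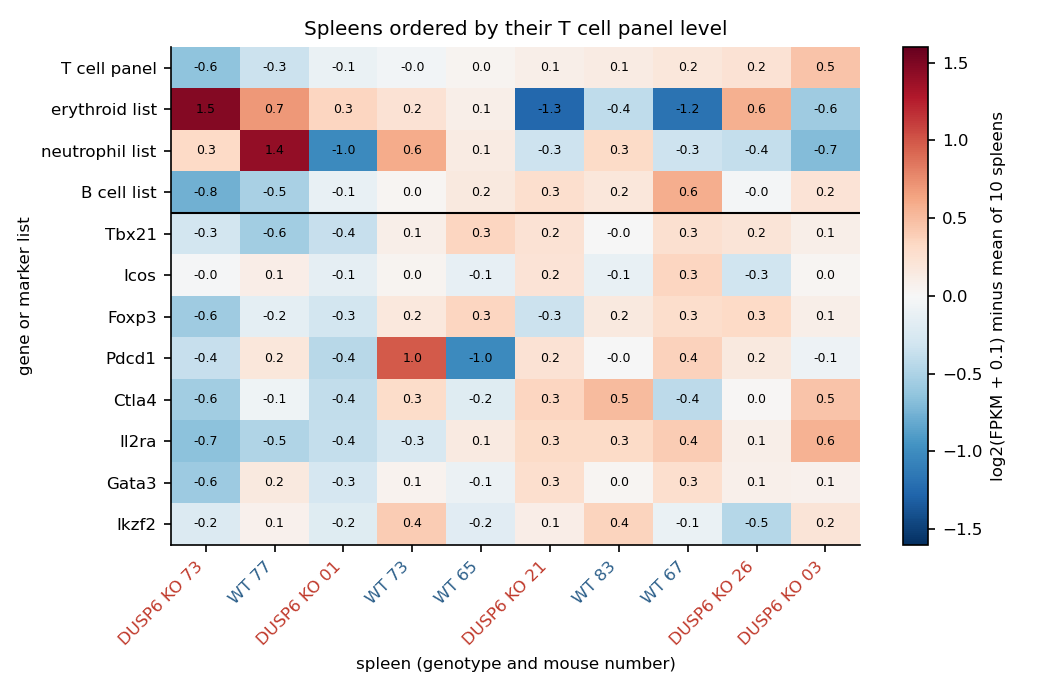
Log2(FPKM + 0.1) minus the mean of the 10 spleens (colour and printed value) for 4 marker lists, above the line, and the 8 genes, with spleens ordered from the lowest to the highest T cell panel. DUSP6 KO 73, at the left end, is lowest for the panel and highest for the erythroid list, and lies below 0 for most of the 8 genes.

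Which other genes varied with each of the 8 was described by Pearson r over the 10 libraries, after removing the mean of each genotype, among the 13421 genes whose mean reached 1 FPKM. The points share libraries whose makeup of cell types and depth differ, so the values are a description. Tbx21 was closest to Ncr1, a receptor gene of natural killer cells (r = 0.97), followed by Apbb1ip and AI837181. Gata3 was closest to Vim (r = 0.98), Slc37a1 and Ankrd12, and Il2ra to Spns3 (r = 0.99), Ctsw and Gsdmd, with 300 genes at an r of at least 0.9. That number was 77 for Tbx21 and 54 for Gata3. The others had few such genes: 12 for Icos (led by Zfat, Tsga13 and Ttc14), 11 for Foxp3 (Tbcb, Pdlim3 and Ppie), 6 for Ctla4 (Ehd3, Cttnbp2nl and Spsb1), 5 for Pdcd1 (Ttc32, Trp53inp1 and Lypla1) and 2 for Ikzf2 (Gnas and Creb3l2, with Iqsec2 the next).

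Among other genes of regulatory T cells, 19 of 20 listed were tested, and 15 had a lower and 4 a higher fitted mean in DUSP6 KO (median log2 fold change -0.21). An unadjusted limma p under 0.05 was found for 4, all lower, against 3.03% lower over all genes, and 0 passed after adjustment. In 3 of the 19, every DUSP6 KO spleen was below every WT spleen, as were 0.563% of all genes: Tigit, Tnfrsf9 and Itgae. Tnfrsf9 and Itgae were named after their values were seen.

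Tigit encodes an inhibitory receptor of regulatory and activated T cells and natural killer cells. It was at 5.42, 4.81, 4.31, 3.77 and 4.79 FPKM in the DUSP6 KO mice and 5.60, 5.47, 12.1, 7.33 and 8.14 FPKM in the WT mice. The groups were apart by the width between 5.42 and 5.47, and WT 73 was well above the others. The log2 fold change was -0.68 (limma p = 0.0072, adjusted p = 0.58; two-sided exact permutation p = 0.0079, the smallest that 5 against 5 mice allow), and it was -0.50 without WT 73 (adjusted p = 0.75).

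Tnfrsf9, the gene of the costimulatory receptor 4-1BB, ran from 1.07 to 2.15 FPKM in DUSP6 KO mice and from 2.16 to 3.09 FPKM in WT mice, a log2 fold change of -0.46 (limma p = 0.037, adjusted p = 0.83; exact permutation p = 0.0079). Itgae, the gene of the integrin CD103, ran from 1.66 to 2.68 FPKM in DUSP6 KO mice and from 2.84 to 3.71 FPKM in WT mice, a log2 fold change of -0.40 (limma p = 0.021, adjusted p = 0.78; exact permutation p = 0.0079). Groups that do not overlap fix this permutation p at its smallest possible value. For Tigit, Tnfrsf9 and Itgae it therefore only restates the separation and is no separate support. Tigit was named for its low limma p, and Tnfrsf9 and Itgae after their values were seen. The fourth, Tnfrsf4, which encodes OX40, was at 4.25 ± 0.701 FPKM in DUSP6 KO mice against 6.00 ± 1.30 FPKM in WT mice (SD, n = 5), a log2 fold change of -0.48 (limma p = 0.010, adjusted p = 0.65; exact permutation p = 0.032), and its groups overlapped. Capg, the most abundant of the list, had a log2 fold change of -0.00040.

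The 7 genes listed for type 1 regulatory T cells, a FOXP3-negative subset that makes interleukin 10, were tested, and all 7 had a lower fitted mean in DUSP6 KO (median log2 fold change -0.25). Of these, 2 had an unadjusted p under 0.05, which 3.03% of all genes had in this direction, and 0 passed after adjustment. Lag3, an inhibitory receptor gene used as a marker of these cells, was at 9.28, 8.05, 9.55, 6.4997 and 10.7 FPKM in the DUSP6 KO mice and 10.9, 13.3, 12.3, 10.2 and 10.2 FPKM in the WT mice. Replicate 03 alone of the DUSP6 KO spleens reached the WT values, and the log2 fold change was -0.37 (limma p = 0.020, adjusted p = 0.77; exact permutation p = 0.024). Il10 had 11, 5, 0, 5 and 1 reads in the DUSP6 KO mice and 2, 11, 23, 11 and 23 reads in the WT mice. Its log2 fold change was -1.37 (95% interval -2.65 to -0.08; limma p = 0.040, adjusted p = 0.84; exact permutation p = 0.071), on counts too few to set its size. By flow cytometry at peak disease, the authors counted more type 1 regulatory and other interleukin 10-positive cells in DUSP6 KO spleens. They also measured more interleukin 10 in serum. Those are protein measures, which the whole-spleen RNA of this list does not test. Itga2, the gene of CD49b, was at 1.91 ± 0.369 FPKM in DUSP6 KO mice against 2.22 ± 0.316 FPKM in WT mice (SD, n = 5; limma, adjusted p = 0.96). The cytokine receptor gene Il27ra, the most abundant of the list, was at 15.8 ± 3.12 and 16.3 ± 3.34 FPKM in that order.

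T helper 1 genes other than Tbx21 had lower fitted means in DUSP6 KO for 12 of 14 (median log2 fold change -0.17), and 0 of 14 had an unadjusted p under 0.05. Ifng, the defining cytokine, was at 0.290, 1.23, 0.369, 0.107 and 0.140 FPKM in the DUSP6 KO mice and 0.316, 0.566, 1.03, 0.836 and 0.388 FPKM in the WT mice. The highest spleen was DUSP6 KO 21 and the lowest DUSP6 KO 01, and the limma adjusted p was 0.96. Runx3, the most abundant of the list, was at 11.4 ± 2.18 FPKM in DUSP6 KO mice against 12.6 ± 1.72 FPKM in WT mice (SD, n = 5). Il18rap, an interleukin 18 receptor gene with the lowest p of the list, was at 2.94 ± 0.778 and 3.48 ± 0.550 FPKM in that order (limma, adjusted p = 0.96).

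Of 12 listed T helper 2 genes other than Gata3, 9 were tested, 7 lower and 2 higher, with a median of -0.11. Il4, their defining cytokine, was at 0.611, 0.796, 0.556, 1.016 and 1.13 FPKM in the DUSP6 KO mice and 1.14, 1.28, 0.945, 1.52 and 1.18 FPKM in the WT mice. DUSP6 KO 01 and 03 reached into the WT values, and the log2 fold change was -0.54 (limma p = 0.030, adjusted p = 0.80; exact permutation p = 0.040) on 10 to 31 reads. Basophils and mast cells also make interleukin 4, and 8 of 8 of their listed genes were lower in DUSP6 KO (median -0.72). An unadjusted p under 0.05, lower in DUSP6 KO, was found for 3.03% of all genes and for 4 of these 8. Their summed level was 14.02 to 18.4 FPKM in DUSP6 KO mice against 25.3 to 54.1 FPKM in WT mice, none of them was at 0 in every library, and their part in the Il4 difference was not tested. Nfil3, next in p after Il4, was at 2.97 ± 0.691 FPKM in DUSP6 KO mice against 3.53 ± 0.600 FPKM in WT mice, and Stat6, which carries the interleukin 4 signal, at 41.3 ± 5.88 and 41.9 ± 4.02 FPKM (SD, n = 5; limma, adjusted p = 0.96 and 0.99).

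T helper 17 and T follicular helper genes had list medians below that of all genes, -0.0046. Of 13 listed T helper 17 genes, 8 were tested, 5 lower and 3 higher, with a median of -0.046, and 0 of 8 had an unadjusted p under 0.05. The cytokine gene Il17a had 3 reads in WT 77 and 0 in the other 9 libraries. The genes of lowest p were Stat3, a signal carrier of interleukin 6 and 23, at 18.5 ± 2.55 FPKM in DUSP6 KO mice against 21.1 ± 1.66 FPKM in WT mice, and the interleukin 1 receptor gene Il1r1, at 6.17 ± 1.35 and 4.85 ± 1.13 FPKM (SD, n = 5; limma, adjusted p = 0.94 for both). Of 14 T follicular helper genes, 10 were lower and 4 higher, with a median of -0.068, and 0 of 14 had an unadjusted p under 0.05. Their factor gene Bcl6 was at 7.41 ± 1.58 FPKM in DUSP6 KO mice against 9.25 ± 2.04 FPKM in WT mice, and the homing receptor gene Cxcr5 at 44.5 ± 12.4 and 49.4 ± 11.4 FPKM (SD, n = 5), with limma adjusted p of 0.94 and 0.99. The inhibitory receptor gene Btla was at 52.6 ± 12.5 and 67.4 ± 17.3 FPKM in that order (limma, adjusted p = 0.94), and Tcf7, a factor gene of naive and memory T cells, at 69.5 ± 18.0 and 64.9 ± 9.97 FPKM. The cytokine gene Il21 had 2 to 43 reads per library and a limma adjusted p of 0.97. Bcl6, Cxcr5 and Btla are also expressed by B cells, whose 10 listed genes were all lower in DUSP6 KO (median -0.18, 0 at an unadjusted p under 0.05).

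Among partners of the costimulatory and checkpoint receptors, 11 of 15 tested genes were higher in DUSP6 KO, with a median of 0.036. One of these had an unadjusted p under 0.05, as 2.62% of all genes had in this direction. It was Nectin2, a ligand gene of the TIGIT receptor, at 6.44 ± 1.57 FPKM in DUSP6 KO mice against 4.89 ± 0.767 FPKM in WT mice (SD, n = 5; log2 fold change 0.37, limma p = 0.043, adjusted p = 0.86; exact permutation p = 0.056). The ranges of Nectin2 overlapped between genotypes. Lgals9, which encodes galectin-9, was at 62.3 ± 10.4 FPKM in DUSP6 KO mice against 56.8 ± 4.04 FPKM in WT mice, and Tnfrsf14, whose product binds BTLA, at 69.8 ± 33.3 and 64.0 ± 18.7 FPKM (SD, n = 5; limma, adjusted p = 0.98 and 1.0).

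Over these 8 lists, 97 of 108 entries were tested, and 66 lay lower and 31 higher in DUSP6 KO (median log2 fold change -0.092). An unadjusted p under 0.05 was found for 8 lower and 1 higher, against 3.03% lower and 2.62% higher over all genes, and 0 passed after adjustment. When DUSP6 KO 73 and WT 77, the libraries with the lowest T cell panel, were left out, 4 of these 8 had an unadjusted p under 0.05. These were Tigit, Tnfrsf4, Lag3 and Socs3, and 1 other gene, Klrg1, did too (it was named after its values were seen). Of all 21296 genes, 667 were lower at that level in this setting. Relative to T cell genes, 2 of the 8 were, Tigit and Il10, and 381 of all genes. The 8 were picked by their p in mostly the same libraries, so neither refit is separate support.

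**Figure D4:**
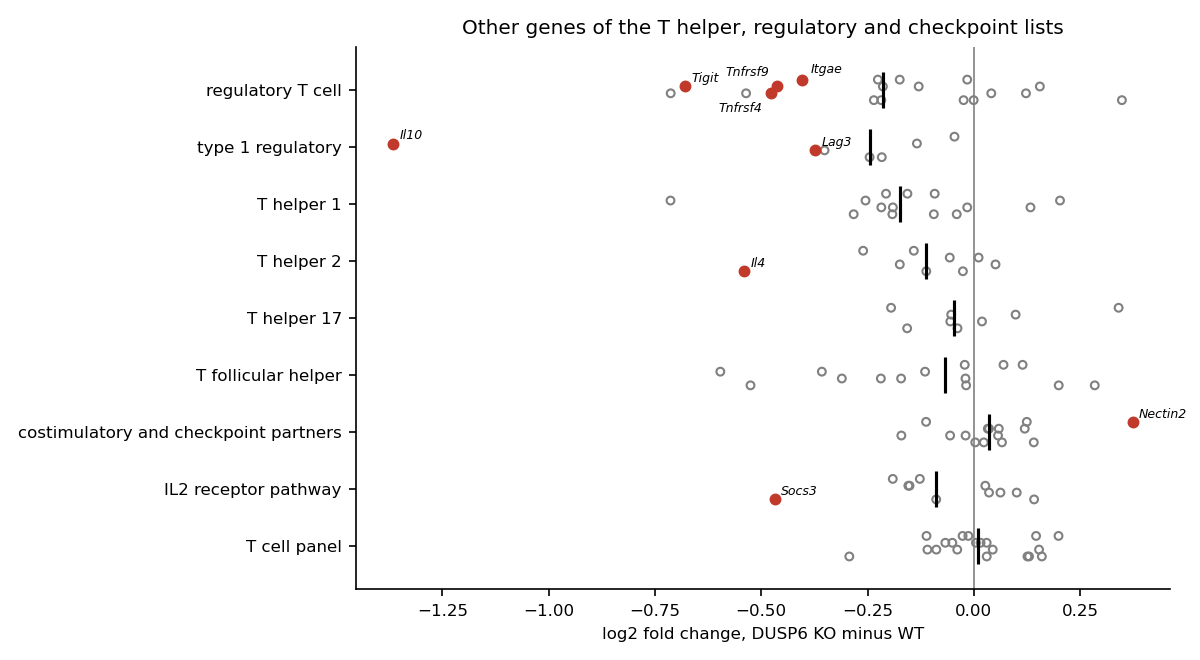
Log2 fold change, DUSP6 KO minus WT (horizontal axis), of the tested genes of each list, with the T cell panel at the foot. Each circle is a gene, black bars are list medians, and filled red circles are the 9 genes with an unadjusted limma p under 0.05, none of which passed after adjustment.

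Markers of other spleen cells are given beside these lists. Neutrophil genes were lower in DUSP6 KO for 12 of 12 (median -1.05, 6 at an unadjusted p under 0.05), with a summed level of 601 to 2011 FPKM in DUSP6 KO mice against 1170 to 5045 FPKM in WT mice. Natural killer and innate lymphoid genes, which share Tbx21, Tigit and Lag3 with T cells, were lower for 11 of 11 (median -0.22, 1 at an unadjusted p under 0.05), with sums of 99.8 to 183 FPKM in DUSP6 KO mice against 127 to 220 FPKM in WT mice. Erythroid genes were higher for 9 of 10 (median 0.27, 0 at an unadjusted p under 0.05). Macrophage and monocyte genes went both ways, 6 higher and 5 lower (median 0.045), with 3 higher and 2 lower at an unadjusted p under 0.05. In 3 of these 11, every DUSP6 KO spleen was above every WT spleen. The reverse, every DUSP6 KO spleen below, held for 3 of 8 basophil and mast cell genes. It also held for 1 of 11 natural killer and innate lymphoid and 1 of 10 stromal and endothelial genes. Over all genes tested, 0.549% had every DUSP6 KO spleen above and 0.563% every one below. An unadjusted p under 0.05 was found for 2.62% higher and 3.03% lower. The plasma cell list had a median of -0.16 (2 lower at an unadjusted p under 0.05), dendritic cell genes 0.070 (1 higher), megakaryocyte genes -0.36 (2 lower) and stromal and endothelial genes 0.073 (2 higher, 1 lower). Over these lists 0 genes of these lists passed after adjustment, and no listed gene of these cell types was at 0 in every library. The part of these cells in the values of the 8 genes was not tested.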

How the data were processed

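Total RNA of 10 spleens was sequenced by a service provider, as paired-end reads of poly-A libraries. The authors used Hisat2 for alignment and featureCounts 1.5.0-p3 (the version is from the submitters' processing notes) for counts per gene, and deposited FPKM values beside gene lengths. The notes name a human build, but the table holds mouse genes, and 7 of the 8 genes have the same start and end in GENCODE release 21 (GRCm38); Foxp3 starts further upstream there. Strand use was not given in the sources used here.

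Reads were recovered from FPKM times gene length, which in each library came in whole multiples of 1 step (tolerance 0.001 of a read). The denominators of the deposited FPKM were 0.949 to 1.12 times the recovered totals. Log2(FPKM + 0.1) values of the 21296 genes whose mean reached 0.1 FPKM were fitted with limma 3.58.1 (R 4.3.3) by lmFit and eBayes, using a trend, p-values were adjusted over all of them by Benjamini-Hochberg, and the threshold was 0.05. Fold changes on this scale understate those of low genes. A two-sided exact permutation test of 5 against 5 spleens stands beside single genes. It uses the same values as limma, so for genes named for a low limma p it is no separate support. Fits were tested on simulated data. Each mouse gave 1 library, and mouse numbers name replicates.

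The 8 genes and all lists (8 T helper, regulatory, checkpoint and interleukin 2 lists, the T cell panel and 10 lists of other cells) were chosen with earlier results of these data known. Genes named are the 8, Dusp6, a fixed set of partners and cytokines, in each T cell list the 2 of lowest p and the most abundant, and the 3 closest genes by correlation. Alternatives were other pseudocounts, filters, scalings and variance settings, voom on recovered reads, other T cell panels and leaving out each library. A pair was chosen after seeing the data: FPKM recomputed on recovered read totals, and leaving out the libraries with the lowest T cell panel. Promoters were RefSeq's. Intervals on reads cover counting error only. One further named gene is not reported here.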

Additional observations from a re-analysis of the deposited data

Results flagged for a closer look

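In groups of 5 spleens, a value was marked when its gap to the nearest other value exceeded 0.71 of the group's range (Dixon's 95% critical value). Chance marks about 1 group in 20, and 9 of 103 groups examined were marked. None of them was a group of the 8 genes described.

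WT 77, the WT spleen with the lowest T cell panel, was marked for 4 genes. Cd4 was at 14.5 FPKM in WT 77, against 17.6 to 18.7 FPKM in the other WT spleens. Cd80 was at 2.36 FPKM in WT 77, against 2.89 to 3.03 FPKM. Il1r1 was at 6.81 FPKM in WT 77, against 4.03 to 4.77 FPKM. Il17a was at 0.154 FPKM in WT 77 on 3 reads, and at 0 in the other WT spleens.

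Other spleens were marked once each. Cd28 was at 6.72 FPKM in WT 83, against 4.08 to 4.81 FPKM in the other WT spleens, and Il21 at 0.474 FPKM in WT 73, against 0.0445 to 0.159 FPKM. In DUSP6 KO mice, Ifng was at 1.23 FPKM in replicate 21, against 0.107 to 0.369 FPKM, Tnfrsf4 at 5.48 FPKM in replicate 03, against 3.75 to 4.10 FPKM, and Itgae at 1.66 FPKM in replicate 26, against 2.56 to 2.68 FPKM.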

How the results depend on the processing

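No gene of the 8 was called in any of the alternatives run, where the lowest adjusted p was 0.73 over 272 values on both scales, of which 20 turned in direction. Foxp3, Gata3 and Ikzf2 stayed lower throughout on both scales. The ranges that follow are on the FPKM scale unless given relative to T cell genes. Foxp3 ranged from -0.33 to -0.23 over the settings that kept all libraries or left out both of those with the lowest T cell panel, and from -0.44 to -0.21 when 1 library was left out. Gata3 ranged from -0.26 to -0.047 without single libraries, the latter without DUSP6 KO replicate 73, and was at -0.030 with both of those libraries left out; Ikzf2 ranged from -0.30 to -0.13 without single libraries, the latter without DUSP6 KO replicate 26. With both of those libraries left out, Ctla4 was at 0.058. Of the 8 other listed genes lower at an unadjusted p under 0.05, 4 reached this level again and 1 other joined them, 5 in all. Those 8 were picked on mostly the same libraries, so the repeat is no separate support. Leaving out 1 library at a time gave -0.20 to 0.030 for Tbx21, -0.17 to 0.082 for Ctla4, -0.18 to 0.12 for Il2ra and -0.48 to 0.016 for Pdcd1. Relative to T cell genes the same gave -0.27 to 0.017 for Icos, -0.11 to 0.0079 for Il2ra, -0.16 to 0.016 for Tbx21, -0.51 to 0.013 for Pdcd1 and -0.22 to 0.022 for Ctla4. The number of genes called over the whole table was 15, and 12 to 32 without single libraries, with 32 without DUSP6 KO replicate 21; the cause was not tested. Other settings gave 11 to 17. No paired analysis was run, because the sources describe no pairing of mice. The 1 replicate number that the 2 groups share names separate mice. Depth limits low cytokine genes, such as Il2 at 0 to 4, Il10 at 0 to 23 and Il21 at 2 to 43 reads per library.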
